A study of Sus scrofa with 2 samples.

Results

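The genes described here are 7 muscle genes of slow fibres and of the stretch response: CSRP3, ANKRD2, FHL3, LMCD1, MYL3, MYH7B and ACTC1. They were chosen from the measured values, that is, with the contrast between the heat and control libraries in view, so what that contrast shows for them is a description and carries no test. Each symbol matched 1 entry of the 27987 in the deposited table, and all 7 lay above the mean of 1 RPKM (reads per kilobase of gene, scaled to the reads of the library) that was asked of a gene to be compared, as did 13191 entries in all. The tissue was longissimus dorsi, the long back muscle, of crossbred DLY barrows (castrated males from Duroc boars and Yorkshire-Landrace sows) of 79.0 ± 1.5 kg from 8 litters. The control arm of 8 pigs was kept at a constant 22 °C and the heat arm of 8 pigs at a constant 30 °C, both for 21 days, and no other treatment or genotype is labelled. Each arm gave 1 library. The sources used here do not say whether it came from 1 pig or from pooled RNA, so pig, temperature, handling and library cannot be told apart and no difference below has a replicate check.

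Skeletal muscle fibres are built from sarcomeres, in which myosin pulls on actin, and slow fibres use their own forms of myosin and troponin. MYL3 is the slow and ventricular essential light chain of myosin, MYH7B is a heavy chain gene related to the slow form, and ACTC1 is the cardiac actin that skeletal muscle makes in fetal life and in regeneration. Sarcomeres are joined at the Z disc, where CSRP3 (muscle LIM protein) sits, and the giant protein titin carries the ankyrin repeat protein ANKRD2, which is induced by stretch. FHL3 and LMCD1 are, like CSRP3, LIM proteins, built from zinc-binding modules that hold other proteins together. FHL3 binds actin and regulators of muscle differentiation, and LMCD1 takes part in calcineurin signalling.

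Both libraries carried skeletal muscle fibre RNA. Of 12 fibre markers, 7 were matched, and their RPKM values summed to 116783 in the control library against 111890 in the heat library. ACTA1, the skeletal actin, stood at 68749 and 65219 RPKM. Depth, estimated from the values, was 23608242 reads (control) and 22863584 reads (heat). The median log2 ratio of all genes compared, log2((heat RPKM + 1)/(control RPKM + 1)), was 0.05, and 95% of genes lay between -0.57 and 0.66. In bulk tissue, fewer fibres of a type and less RNA per fibre cannot be told apart.

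Of the 7 genes, 4 (CSRP3, FHL3, ACTC1 and MYL3) were higher in the heat library and 3 (LMCD1, MYH7B and ANKRD2) were lower. A fold of at least 1.5 on the log2(RPKM + 1) scale was reached by 2 of the 7 in the higher direction, CSRP3 and FHL3, and by none in the lower one. Among all genes compared, 3.44% passed that fold in the higher direction and 2.37% in the lower one. The 95% counting interval of the RPKM ratio, which covers counting error only, lay above 1 for 4 of the 7 genes and below 1 for 3. Over all 12857 genes with such an interval it lay above 1 for 20.4% (2624 genes) and below 1 for 10.4% (1335 genes). That balance moved with the scaling, to 1951 above and 1816 below with the median of all genes set to 0, to 1831 and 1939 with a trimmed mean set to 0, and to 3296 and 998 with libraries scaled on all but the 10 highest genes, while the counts of 4 and 3 stayed as they were. Since the same contrast chose the genes, nothing is read from these counts.

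By level per length, MYL3 was the highest of the 7 in both libraries and MYH7B the lowest. The control order was MYL3 (591 RPKM), CSRP3 (102), LMCD1 (64.2), ANKRD2 (47.2), ACTC1 (16.8), FHL3 (16.2) and MYH7B (13.6). In the heat library it was MYL3 (802), CSRP3 (188), LMCD1 (48.6), ANKRD2 (38.7), FHL3 (25.9), ACTC1 (25.4) and MYH7B (10.6). ACTC1 and FHL3 traded places, but their levels overlapped within counting error in each library, at 15.5 to 18.3 and 14.9 to 17.5 RPKM in the control library. The other neighbours in the heat order had intervals that did not overlap. In the control order FHL3 and MYH7B (12.6 to 14.7 RPKM) lay just apart. Together the 7 genes made up 0.119% of the summed RPKM in the control library against 0.163% in the heat library.

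**Figure D1:**
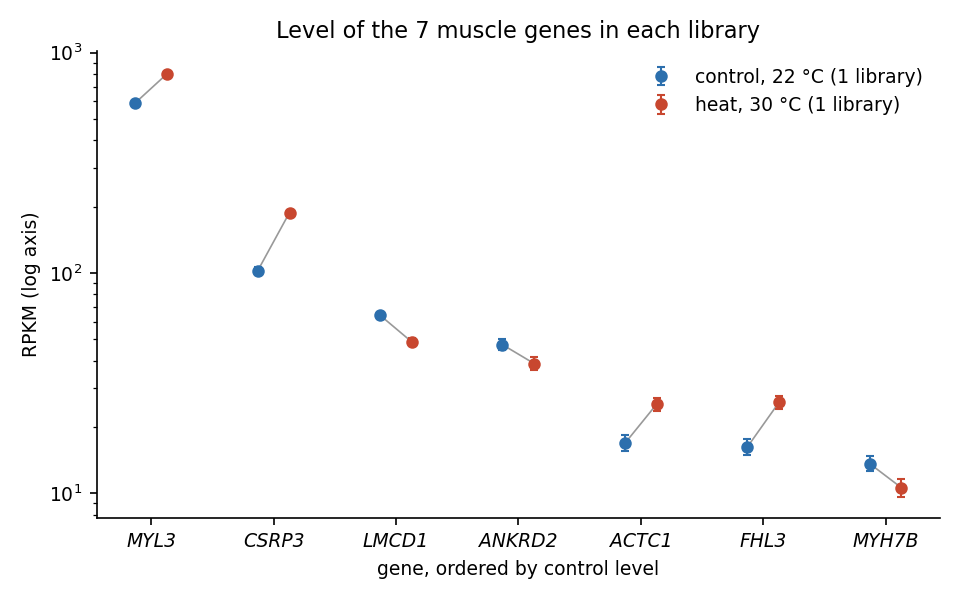
RPKM (log axis) of each gene in the control library (blue) and the heat library (red), 1 library per group; bars are exact Poisson 95% intervals from recovered reads and cover counting error only. MYL3, CSRP3, ACTC1 and FHL3 sit higher in the heat library and LMCD1, ANKRD2 and MYH7B lower.

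CSRP3 (ENSSSCG00000013354) had the highest log2 ratio of the 7, 0.87. It stood at 102 RPKM in the control library against 188 in the heat library, on at least 2238 and 3983 reads. The heat value was the higher by 85.7 RPKM, a ratio of 1.84 (1.74 to 1.94). Among the 497 other genes whose mean RPKM lay within 2-fold of its own, 1 had a log2 ratio at least as high, an entry without a symbol. Among the 6990 compared genes with a symbol CSRP3 ranked 21 from the top. The 95% range of those 497 genes ran from -0.42 to 0.40, narrower than over all genes.

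The relatives of CSRP3 stood at other levels and showed other differences. CSRP1, the form of smooth muscle and many other cells, was at 20.5 and 21.3 RPKM (log2 ratio 0.05), with a ratio interval of 0.91 to 1.17. CSRP2, also a smooth muscle form, was at 4.54 and 2.47 RPKM, lower in the heat library with a ratio of 0.545 (0.408 to 0.723). CSRP3 made up 80.3% of the summed RPKM of the 3 genes in the control library against 88.8% in the heat library. The muscle-specific form was thus the most abundant of the 3 in both libraries.

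FHL3 (ENSSSCG00000003644) stood at 16.2 RPKM in the control library against 25.9 in the heat library, on at least 595 and 921 reads. Its ratio was 1.60 (1.44 to 1.77) and its log2 ratio 0.64. Of 2650 other genes within 2-fold of its mean, 22 (0.83%) had a log2 ratio at least as high. FHL5, the only other gene of the family matched here, was at 3.83 and 4.35 RPKM with an interval of 0.87 to 1.49. FHL1 and FHL2, the forms of skeletal and heart muscle, are not analysed here.

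LMCD1 (ENSSSCG00000011538), the third LIM gene, lay on the other side and had the lowest log2 ratio of the 7, -0.40. It stood at 64.2 RPKM in the control library against 48.6 in the heat library, on at least 2596 and 1901 reads. The ratio was 0.756 (0.712 to 0.803). Of 1211 other genes within 2-fold of its mean, 24 (1.98%) had a log2 ratio as low or lower. The RPKM ratio of CSRP3 to LMCD1, which does not depend on library scaling, was 1.59 in the control library against 3.87 in the heat library. For FHL3 to LMCD1 the same ratio was 0.252 and 0.533. Each pair sets a gene that was higher against one that was lower, so a higher ratio in the heat library was fixed in advance.

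Other LIM genes did not share one direction. Of 35 listed LIM genes of muscle and adhesion, 23 were matched and 21 compared, with 12 above 0 and 9 below. At least 1.5-fold higher on the log2(RPKM + 1) scale were 2, CSRP3 and FHL3, and 1, CSRP2, was at least that much lower. The list median was 0.05, equal to that of all genes, and 0.03 over the 18 genes left without CSRP3, FHL3 and LMCD1. CSRP3 and FHL3 had the highest log2 ratios of the list and CSRP2 (-0.67) and LMCD1 the lowest.

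**Figure D2:**
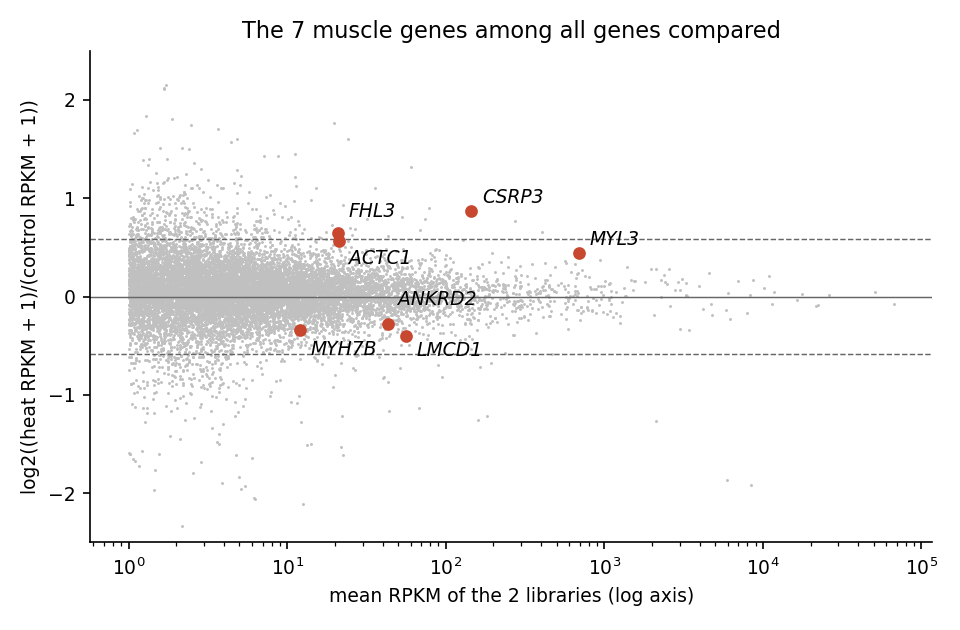
Log2 ratio of heat over control, log2((heat RPKM + 1)/(control RPKM + 1)), against mean RPKM (log axis) for the 13191 genes compared (grey) and the 7 genes (red); dashed lines mark 1.5-fold and 5 genes lie outside the plotted range. CSRP3 and FHL3 lie above the upper line, ACTC1 (0.56) just under it, and the spread of grey points narrows toward high RPKM.

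ANKRD2 (ENSSSCG00000010522) stood at 47.2 RPKM in the control library against 38.7 in the heat library, on at least 1114 and 885 reads. The ratio was 0.820 (0.750 to 0.897) and the log2 ratio -0.28. Of 1518 other genes within 2-fold of its mean, 83 (5.47%) had a log2 ratio as low or lower.

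All 3 genes of the muscle ankyrin repeat family were lower in the heat library by nearly the same factor. ANKRD23, a family member that also binds titin, was the most abundant at 1371 and 1138 RPKM (log2 ratio -0.27), with a ratio of 0.830 (0.806 to 0.855). ANKRD1, the cardiac ankyrin repeat protein, was at 358 and 304 RPKM (-0.24), with a ratio of 0.848 (0.819 to 0.878). The intervals of the 3 ratios overlapped. ANKRD2 was 2.66% of their summed RPKM in the control library against 2.62% in the heat library, and its RPKM was 13.2% and 12.8% of that of ANKRD1.

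The genes around titin gave no common direction. Of 15 listed genes of the ankyrin repeat and titin complex, 12 were compared, 7 above 0 and 5 below, with a median of 0.03, a mean of -0.03 and none past 1.5-fold. The 3 ankyrin repeat genes were its lowest. SQSTM1, an autophagy adaptor linked to titin's kinase region, was highest at 211 and 250.3 RPKM (0.24), followed by TRIM63, the ubiquitin ligase MuRF1, at 168 and 190.3 RPKM (0.18). Z disc and stretch sensing genes had a median of 0.05 over 20 compared genes of 31 listed, with 12 above 0, 8 below and none past 1.5-fold. They ran from DES, the intermediate filament desmin (2203 and 2567 RPKM, 0.22), and CMYA5, myospryn (300.2 and 346 RPKM, 0.20), down to FLNC, filamin C (320.0 and 275 RPKM, -0.22), and SYNPO2L (86.4 and 71.4 RPKM, -0.27).

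**Figure D3:**
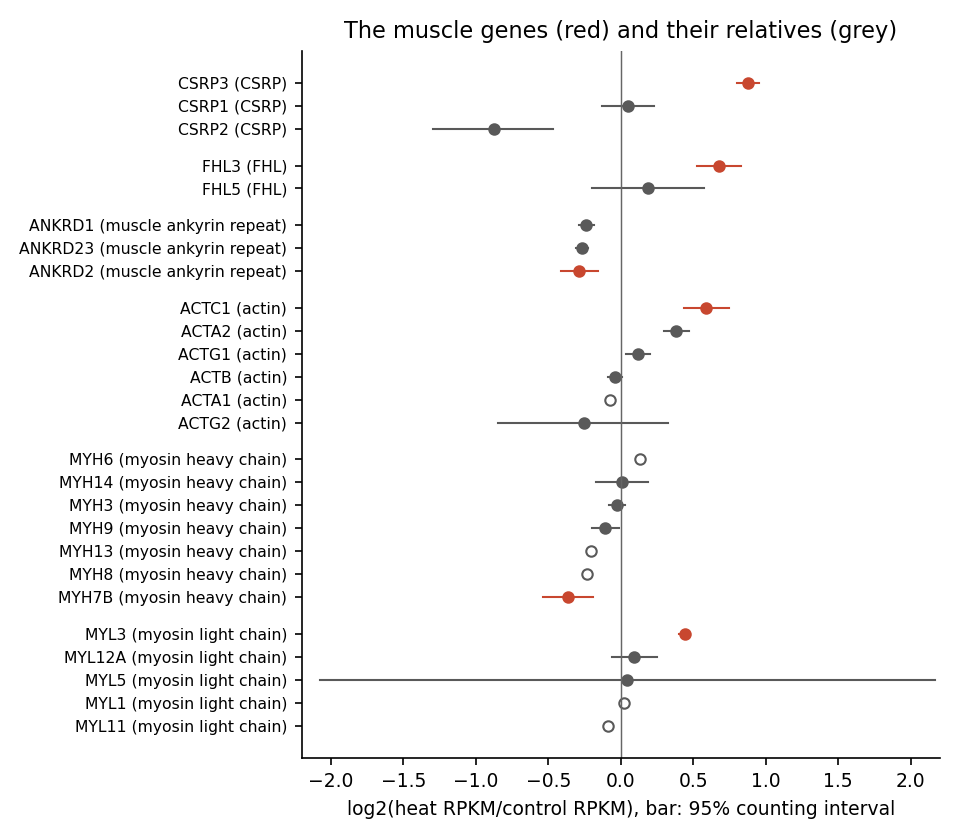
Log2 of the heat over control RPKM ratio, with no pseudocount, for the genes (red) and the compared members of their families (grey); bars are 95% counting intervals and open circles are genes whose reads could not be recovered. All 3 ankyrin repeat genes lie left of 0, while CSRP3, FHL3, ACTC1 and MYL3 have the highest ratio of their families among the genes shown.

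MYL3 (ENSSSCG00000011325) stood at 591 RPKM in the control library against 802 in the heat library, on at least 8987 and 11803 reads. The ratio was 1.36 (1.32 to 1.39) and the log2 ratio 0.44. Of 135 other genes within 2-fold of its mean, 1, an entry without a symbol, had a log2 ratio at least as high. Its fast counterpart MYL1 stood far above it, at 17607 and 17873.5 RPKM (log2 ratio 0.02), so MYL3 was 3.36% of MYL1 in the control library against 4.48% in the heat library. The fast regulatory light chain MYL11 was at 23031 and 21673 RPKM (-0.09). The non-muscle form MYL12A (26.2 and 28.01 RPKM) and MYL5 (1.22 and 1.26 RPKM) had intervals that held 1.

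MYL4, the atrial and embryonic essential light chain, stood at 0.07 RPKM in the control library against 1.44 in the heat library, which rests on at least 1 and 20 reads. Its ratio of 20.7 had a counting interval of 3.30 to 856, and its mean lay under the level asked for the comparison. MYL10 was listed at 0 in both libraries.

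MYH7B (ENSSSCG00000007288) went the other way from MYL3. It stood at 13.6 RPKM in the control library against 10.6 in the heat library, on at least 626 and 471 reads. The ratio was 0.777 (0.688 to 0.877) and the log2 ratio -0.34. Of 3737 other genes within 2-fold of its mean, 176 (4.71%) were as low or lower. MYH7B was 2.31% of MYL3 by RPKM in the control library against 1.32% in the heat library.

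Among the myosin heavy chains MYH7B was a minor transcript. It made up 0.141% of the summed RPKM of the 8 matched genes in the control library against 0.120% in the heat library. The entry named MYH8, a perinatal form, held 6739 and 5737 RPKM (-0.23), that named MYH6, a heart form, 2377 and 2603 RPKM (0.13), and that named MYH13, an extraocular form, 441 and 381 RPKM (-0.21). Heavy chain genes are alike in sequence, and how reads matching several of them were assigned is unknown (not given in the sources used here). MYH1, MYH2, MYH4 and MYH7 are not analysed here. Single heavy chain entries are therefore uncertain. The embryonic MYH3 (37.2 and 36.5 RPKM, -0.03) and the non-muscle MYH9 (26.9 and 24.99 RPKM, -0.10) and MYH14 (3.89 and 3.92 RPKM, 0.01) differed less. MYH15 was at 0.14 and 0.11 RPKM.

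Slow fibre genes lay between MYL3 (0.44) and MYH7B (-0.34), and none was past 1.5-fold. Of 17 listed slow contractile and calcium genes 8 were compared, with 6 above 0 and 2 below, and 4 above the median of all genes. The list median was 0.09 with or without MYL3 and MYH7B, and 0.04 with the median of all genes set to 0. After MYL3 came TNNC1, slow troponin C, at 2298 and 2793 RPKM (0.28, ratio interval 1.20 to 1.24). The slow troponins TNNT1 (1482 and 1655 RPKM, 0.16) and TNNI1 (1033 and 1136 RPKM, 0.14), singled out after their values were seen, followed. MYBPC1, the slow myosin binding protein C, was at 489 and 474 RPKM (-0.05) and above MYH7B only.

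Fast fibre genes had a median of -0.09 over 9 compared genes of 15 listed, with 3 above 0 and 6 below. PVALB, the calcium buffer parvalbumin, was the only one past 1.5-fold, at 226 and 93.7 RPKM (-1.26), and next lowest was ATP2A1, the fast calcium pump, at 4367 and 3991 RPKM (-0.13). The Z disc gene MYOZ1 (2773 and 3080.2 RPKM, 0.15) and the calcium store CASQ1 (2934 and 3080.1 RPKM, 0.07) were highest. Slow to fast ratios within a library, for pairs picked after the values were seen, were 0.102 (control) and 0.133 (heat) for TNNC1 over TNNC2, fast troponin C, and 0.181 and 0.188 for MYBPC1 over MYBPC2, the fast binding protein C. The ratio of MYL3 to MYL1 was thus 1.34 times as high in the heat library, that of the troponins 1.303 times and that of the binding proteins 1.04 times.

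ACTC1 (ENSSSCG00000004803) stood at 16.8 RPKM in the control library against 25.4 in the heat library, on at least 558 and 814 reads. The ratio was 1.51 (1.35 to 1.68), while the log2 ratio with the pseudocount, 0.56, stayed under the 1.5-fold line. Of 2640 other genes within 2-fold of its mean, 35 (1.33%) had a log2 ratio at least as high. Its level was 0.0245% of that of ACTA1 in the control library against 0.0389% in the heat library. The coding sequences of these actins are near-identical, so an ACTA1 read assigned to ACTC1 would weigh heavily, and the share of such reads was not tested.

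Among the other actins, ACTA2 of smooth muscle was also higher in the heat library, at 52.03 and 67.9 RPKM (log2 ratio 0.38). Its ratio was 1.304 (1.23 to 1.38). ACTA2 held 0.0752% of the summed actin RPKM in the control library against 0.103% in the heat library. Whether ACTA1 reads were assigned to it was not tested either. The cytoplasmic actins ACTB (165 and 161 RPKM, -0.04) and ACTG1 (208 and 226 RPKM, 0.12) differed less, as did ACTA1 (-0.08). ACTG2, the enteric form, was at 1.96 and 1.64 RPKM with an interval that held 1. ACTC1 was 32.4% of ACTA2 in the control library against 37.4% in the heat library. Of 20 compared relatives of the 7 genes, the sign of the log2 ratio turned under at least 1 scaling for 6, namely CSRP1, ACTB, MYH3, MYH14, MYL1 and MYL5.

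Smooth muscle and pericyte markers went both ways. Of 12, 8 were compared, ACTA2 among them, with 4 above 0, 4 below and a median of -0.07. Their summed RPKM was 127 and 138, of which ACTA2 held 52.03 and 67.9. MYLK, the myosin light chain kinase of smooth muscle, was at 4.04 and 5.03 RPKM (0.26, interval holding 1), while CNN1, calponin (34.9 and 30.6 RPKM, -0.19), and NOTCH3 (10.6 and 8.94 RPKM, -0.23) were lower in the heat library. Of the heart muscle markers NPPB, GATA4 and TBX5 were listed at 0 in both libraries, and RYR2 (0.13 and 0.09 RPKM) and MYBPC3 (0.05 and 0.01 RPKM) were near 0. The 3 compared heart markers were TNNT2 (0.93), MYH6 (0.13) and ANKRD1 (-0.24). Their median of 0.13 was the value of the MYH6 entry, which is uncertain like other single heavy chain entries. Fibroblast markers had a median of -0.13 (7 compared), adipocyte markers -0.53 (3) and endothelial markers 0.19 (3). For nerve and Schwann cell markers it was -0.37 (2), for macrophage markers -0.01 (5, with a mean of 0.24) and for skeletal fibre markers -0.08 (7). The adipocyte markers were split, with PLIN4 higher (33.7 and 39.6 RPKM, 0.23) and PLIN1 (-0.53) and CIDEC (-0.93) lower. Their summed RPKM was 51.3 in the control library against 49.8 in the heat library. Of the endothelial markers TEK (0.27) and PECAM1 (0.19) were higher, while KDR was at -0.11 with an interval that held 1. Among the macrophage markers LYZ, lysozyme, stood at 1.09 and 3.295 RPKM, a ratio of 3.02 (1.89 to 4.96). CD68 was at 3.61 and 5.36 RPKM, a ratio of 1.49 (1.11 to 1.99). MRC1 was lower in the heat library, with a ratio of 0.744 (0.556 to 0.991), while CD14 and CSF1R had intervals that held 1. Single compared genes stood for satellite cells (VCAM1, 0.48) and red blood cells (HBB, 0.32). The other matched satellite cell markers had means under 1 RPKM and lay below 0, with ratio intervals that held 1. They were MYF5 (-0.34), CALCR (-0.12) and CHRDL2 (-0.02), so VCAM1 does not stand for its list. The part of other cell types in the values of the 7 genes was not tested.

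Genes of muscle development went both ways. Of 22 listed, 13 were matched and 10 compared, 6 above 0 (60%, against 58.8% of all genes) and 4 below, with a median of 0.10 and 5 above the median of all genes. TNNT2, the cardiac and embryonic troponin T, was highest at 6.34 and 12.95 RPKM (0.93), a ratio of 2.04 (1.65 to 2.53). It was the only one past 1.5-fold on the log2(RPKM + 1) scale. MUSK, the receptor that organises the nerve contact of the fibre, was at 1.06 and 2.00 RPKM (0.54), a ratio of 1.89 (1.38 to 2.60). MYOD1, a master factor of the muscle lineage, was at 12.9 and 10.3 RPKM (-0.30), the lowest, with MYH8 next.

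The regulators linked to these genes showed mostly small differences. In the calcineurin, NFAT and MEF2 group, the pathway in which LMCD1 takes part, 5 of 19 compared genes were above 0 and 14 below. The group median was -0.08, and none of its genes was past 1.5-fold on the log2(RPKM + 1) scale. NFATC3, a calcineurin-driven transcription factor, was highest at 15.7 and 23.03 RPKM (0.53), with a ratio interval of 1.33 to 1.62, followed by HDAC4, a repressor of MEF2, at 3.85 and 4.86 RPKM (0.27). HDAC9, another such repressor, was lowest at 3.98 and 2.55 RPKM (-0.49), a ratio of 0.641 (0.455 to 0.897). RCAN2, a calcineurin inhibitor, was next at 3.69 and 2.68 RPKM (-0.35), with a wide ratio interval of 0.481 to 1.09.

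Genes of SRF, YAP and the early response to load include factors known to act on actin and LIM genes. The list had a median of 0.10 over 14 compared genes of 23 listed, 8 above 0 and 6 below. None was past 1.5-fold on the log2(RPKM + 1) scale. EGR1, an immediate early factor, was at 4.55 and 7.12 RPKM (0.55), a ratio of 1.56 (1.36 to 1.80), and JUNB at 4.73 and 6.12 RPKM (0.31). At the other end were WWTR1, the YAP partner TAZ, at 4.57 and 3.80 RPKM (-0.21, ratio interval 0.653 to 1.06), and the matrix protein CCN2, a YAP target, at 9.93 and 7.73 RPKM (-0.32). The factor SRF itself, picked with its value known, stood at 33.9 and 32.1 RPKM (-0.08).

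Regulators of the slow programme had a median of 0.01 over 13 compared genes of 22 listed, 8 above 0 and 5 below, none past 1.5-fold. MSTN, myostatin, a brake on muscle growth, was highest at 16.3 and 21.3 RPKM (0.37), followed by EYA3, a transcriptional coactivator, at 3.11 and 3.76 RPKM (0.21). NFIX, a factor of fetal muscle, was lowest at 116 and 95.2 RPKM (-0.28). The corepressor NRIP1 was next at 10.8 and 9.01 RPKM (-0.24), with a wide ratio interval of 0.574 to 1.21. PPARGC1A is not analysed here. Above 0 were 58.8% of all genes compared. The share ran from 57.1% to 61.5% in the LIM, titin complex, Z disc, SRF, slow programme and developmental lists. It was 26.3% in the calcineurin group, 33.3% in the fast fibre group, 75% in the slow fibre group, 28.6% in the heavy chain family, 50% in the actin family and 80% in the light chain family. Under at least 1 scaling the median changed sign for the LIM, titin complex, Z disc and slow programme lists. It also did for the actin and light chain families and, among the marker lists, for macrophages.

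**Figure D4:**
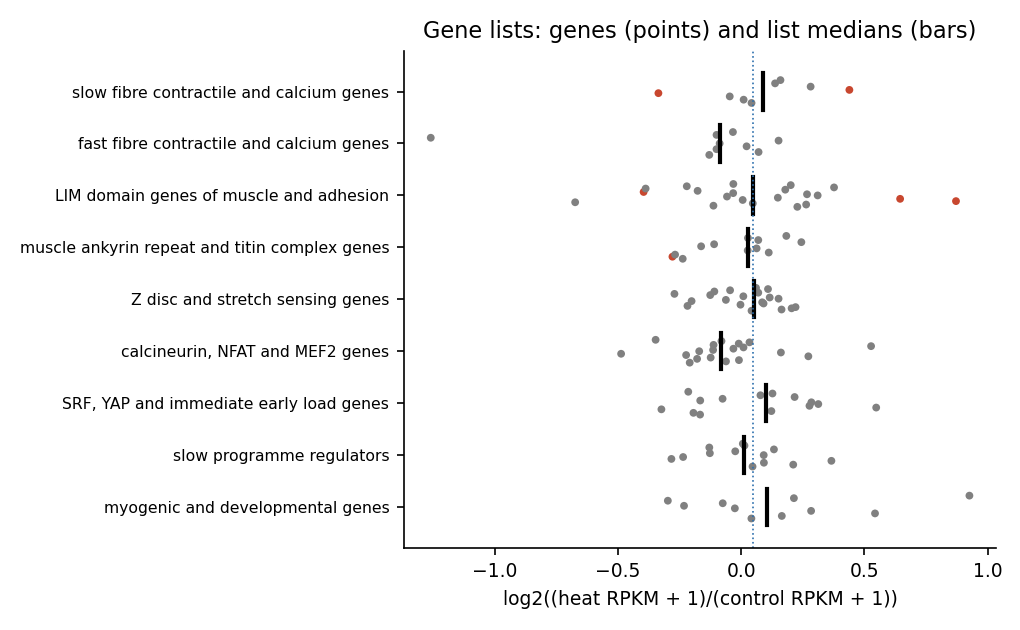
Log2 ratio of heat over control, log2((heat RPKM + 1)/(control RPKM + 1)), for each compared gene of 9 gene lists (points, red for those of the 7 genes that a list holds, which leaves out ACTC1) with the list median (black bar); the dotted line is the median of all genes, 0.05. CSRP3 and FHL3 lie right of the other LIM genes and PVALB is the far left point of the fast fibre list.

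By the size of the difference, the named genes nearest to CSRP3 within 2-fold of its mean RPKM were CLU, the secreted chaperone clusterin (54.3 and 94.5 RPKM, log2 ratio 0.79), ATP1B4 of the sodium pump family (71.4 and 99.6 RPKM, 0.47) and the chaperone HSP90AB1 (75.8 and 105 RPKM, 0.47). None of the 299 named genes in that range had a higher log2 ratio than CSRP3. Nearest to LMCD1 among 771 named genes were RNASEK (50.1 and 37.8 RPKM, -0.40), the collagen receptor MRC2 (37.2 and 28.1 RPKM, -0.39) and the growth factor HBEGF (36.6 and 27.6 RPKM, -0.39), and 5 named genes in that range were lower still. This likeness rests on 2 libraries, that is, on 1 difference per gene.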

How the data were processed

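Poly(A) RNA was measured in 2 libraries, 1 per arm. The deposited values are RPKM, 1 per gene and library. The submitters' processing notes name Bowtie, TopHat 1.4.0, Cufflinks 1.3.0 and Sscrofa10.2, with no role given. The strand setting and the treatment of reads with several matches are not given in the sources used here, so reads of overlapping genes cannot be told apart. Symbols came from a table of pig gene identifiers, which matched 11374 entries, and where a symbol repeated its highest entry was kept.

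Genes with a mean of at least 1 RPKM were compared by their log2 ratio with a pseudocount of 1 RPKM, which understates differences of low genes, and counted at 1.5-fold. With 1 library per group there is no test.

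Reads were recovered from the RPKM values. The factor between library totals, control over heat, was 1.03, and the control total was the one for which the share of 8241 gene lengths that came out whole (within 2e-05 bp) lay nearest to 73.1%, the share expected of a correct total when reads are reduced to minima; it was 74.0%. Recovered reads are minima, as a true pair can be a multiple, so intervals may be too wide. Of the genes compared, 97.5% had them. Exact 95% intervals (Clopper-Pearson for ratios, Poisson for levels) cover counting error only, as PCR reads are not independent molecules. The steps were tested on simulated data. Python 3.11.15, SciPy 1.17.1 and pandas 2.3.3 were used.

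The 7 genes, 12 gene lists and 10 marker lists were chosen with earlier results of these data known, and 183 of 273 listed symbols were matched. Named are the 7, the 2 highest and 2 lowest compared genes of a list described, all matched relatives, and the 3 genes with a symbol most like the highest and the lowest of the 7. Alternatives were other pseudocounts, scalings, filters and thresholds. Sequences and coordinates were not used here.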

Additional observations from a re-analysis of the deposited data

How the results depend on the processing

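With 1 library in each group there is nothing to pair or to leave out. Over 35 recomputed log2 ratios of the 7 genes, with pseudocounts of 0.1 and 5 and 3 scalings, none changed sign, and 3, all of MYL3 under the scalings (0.39, 0.38 and 0.48 against 0.44 as reported), moved by more than its counting error. CSRP3 ranged from 0.81 to 0.91, FHL3 from 0.54 to 0.69 and ACTC1 from 0.48 to 0.61. Of the 7 genes, 2 were at least 1.5-fold higher. That count was 1 (CSRP3) at a pseudocount of 5, 0 at a threshold of 2-fold, and 3, with ACTC1, at a pseudocount of 0.1 or when the 10 highest genes were left out of the scaling. Over all genes compared, 454 were at least 1.5-fold higher and 313 lower. A pseudocount of 0.1 gave 934 higher and 565 lower, and one of 5 gave 53 and 59. A mean of at least 5 RPKM gave 97 and 69, no filter 785 and 482, and a threshold of 2-fold 83 and 77. The filters test fewer or more genes. The cause of the pseudocount's effect on these counts is its construction, since a larger one shrinks low genes most. The counting intervals under the scalings were added after seeing the data. Of 63 recomputed list values, which were medians or the list mean in place of the median, 8 changed sign. These belonged to the LIM, titin complex, slow programme and macrophage lists and to the actin and light chain families. All of these had medians at most 0.05 from 0 as reported. For the macrophage list it was the mean (0.24) that differed in sign among these values, while its median turned under a scaling not among them. Depth limits low genes most: 1 read on a gene of 1 kb was worth 0.0424 RPKM in the control library.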
